A study of Homo sapiens with 4 samples.

Results

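The 10 genes described here belong to the aldehyde dehydrogenase (ALDH) family: ALDH1A1, ALDH1A2, ALDH1A3, ALDH1B1, ALDH2, ALDH3A1, ALDH3A2, ALDH3B1, ALDH7A1 and ALDH9A1. They were chosen by gene symbol out of 26475 symbols in the count tables, and all 10 were found in every table and kept by the filter, a minimum of 10 reads in any 1 library, which kept 15204 symbols. Messenger RNA was sequenced from mammospheres, floating spheres grown in ultra-low attachment plates, of the MDA-MB-468 line, established from a basal-like triple-negative breast cancer (TNBC). The study asked how the transcriptome of such spheres differed upon knockout of TCOF1, which encodes the nucleolar protein treacle.

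The 4 libraries were CTL, CTL+dox, gRNA2 and gRNA2+dox, with 1 library for each condition. By the labels, CTL and gRNA2 were untreated and wild type, CTL+dox was wild type and given doxycycline (dox), and gRNA2+dox was given doxycycline to induce the knockout. By the methods of the study, gRNA2 cells carried Cas9 and a doxycycline-inducible guide against TCOF1 and were sorted as a pool on both fluorescent reporters rather than grown from a clone, CTL cells were the matching control, and several plates of spheres were collected for each library. There was no replicate of any condition. Each comparison is therefore between a pair of libraries, no p-value is given, and every interval covers counting error only and not the variation between cultures.

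ALDH enzymes oxidise aldehydes to carboxylic acids with NAD or NADP as the cofactor. The ALDH1A enzymes turn retinaldehyde into retinoic acid, which binds nuclear receptors and switches on target genes, while other members clear acetaldehyde, aldehydes from lipid peroxidation, or intermediates of amino acid breakdown. High ALDH enzyme activity, read with a fluorescent substrate, is widely used to sort stem-like breast cancer cells, and ALDH1A1 and ALDH1A3 are the members most often discussed as its source. No enzyme activity or protein level was part of the files used here.

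The targeted gene was checked first. TCOF1 had 1019 reads in untreated CTL, 754 in CTL+dox, 1318 in untreated gRNA2 and 437 in gRNA2+dox, or 49.9, 33.5, 50.6 and 20.0 in CPM, counts scaled to the total of each library. It was lowest in the library labelled as knockout, and it was also lower in CTL+dox than in CTL, at 0.671 of the CTL level. Between 19960644 and 26322847 reads were counted on genes in a library, so 3 reads were worth 0.115 to 0.147 CPM. Of all reads, 79.7% to 79.8% fell on genes in CTL, gRNA2 and gRNA2+dox, and 81.0% did in CTL+dox. Reads on no annotated gene made up 12.5% in gRNA2+dox and 10.6% to 11.3% elsewhere. Reads that map to several places made up 3.39% in gRNA2+dox and 4.02% to 4.85% elsewhere. Breast epithelial markers summed to 22180 to 24108 CPM, led by KRT17 and KRT5, and both basal (KRT5, KRT14, KRT17) and luminal (KRT8, KRT18) keratins were read in every library. Of 7 fibroblast markers, 3 or 4 had at most 3 reads in a library. Of the white blood cell markers, CSF1R had 1011 to 1433 reads in a library and CD14 had 233 to 280. In the same list CD3D and NKG7, which mark T cells and natural killer cells, were at 0 in every library.

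The family was expressed in all 4 libraries and its level was carried by a few members. The 10 genes together gave 1330 CPM in untreated CTL, 1468 in CTL+dox, 1263 in untreated gRNA2 and 1327 in gRNA2+dox. ALDH1A3 alone held 67.3% to 69.3% of these reads, ALDH1A1 8.06% to 11.4% and ALDH3A2 9.97% to 10.2%. ALDH1A3 was the most abundant member in each library, both in CPM and per length of transcript. No member reached 1.5-fold in any of the 4 comparisons, and the member that ranged most was ALDH1A1.

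ALDH1A3 and ALDH1A1, the most abundant retinaldehyde-oxidising members, differ in the 250 bases before their annotated starts, which are shown here. The level of ALDH1A1 ranged over 1.65-fold between libraries and that of ALDH1A3 over 1.13-fold. Any link between the sequences and these ranges was not tested. Both sequences are from RefSeq on GRCh38.p14 and run in the direction of the gene, with capitals marking a CCAAT box (CCAAT) or a GC box (GGGCGG, or CCGCCC where the match is on the opposite strand). The window of ALDH1A1 is chr9:72953054-72953303 on the minus strand, and that of ALDH1A3 is chr15:100879581-100879830 on the plus strand.
ALDH1A1: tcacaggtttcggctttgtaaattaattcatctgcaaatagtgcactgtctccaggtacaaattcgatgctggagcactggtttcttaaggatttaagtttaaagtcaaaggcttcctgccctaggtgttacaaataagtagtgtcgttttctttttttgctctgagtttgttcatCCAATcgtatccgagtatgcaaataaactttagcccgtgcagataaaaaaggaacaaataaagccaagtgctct
ALDH1A3: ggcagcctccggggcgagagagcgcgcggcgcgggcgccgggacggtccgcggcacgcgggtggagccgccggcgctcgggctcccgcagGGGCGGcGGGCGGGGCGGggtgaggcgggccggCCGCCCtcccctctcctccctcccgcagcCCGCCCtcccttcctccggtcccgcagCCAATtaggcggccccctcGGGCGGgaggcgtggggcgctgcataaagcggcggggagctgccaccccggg
The ALDH1A1 window was 38.4% G and C and that of ALDH1A3 was 82.4%, against a median of 58.0% over 35116 listed promoters, of which 10.1% and 98.6% had a lower share. Each window held 1 CCAAT box, at position -74 for ALDH1A1 and -71 for ALDH1A3 counted from the annotated start, and 32.0% of all promoters held one on either strand. ALDH1A3 held 6 GC boxes, some of which share bases, and ALDH1A1 held 0, with 42.6% of all promoters holding at least 1. A TATA box (TATAAA, in 10.7% of promoters) and the half-site bound by retinoic acid receptors (AGGTCA, in 12.1%) were found in neither window on either strand. Promoters were listed for 8 of the 10 members; AGGTCA was in 0 of those 8 windows. These matches describe letters in the reference and were not tied to any measurement of binding.

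**Figure D1:**
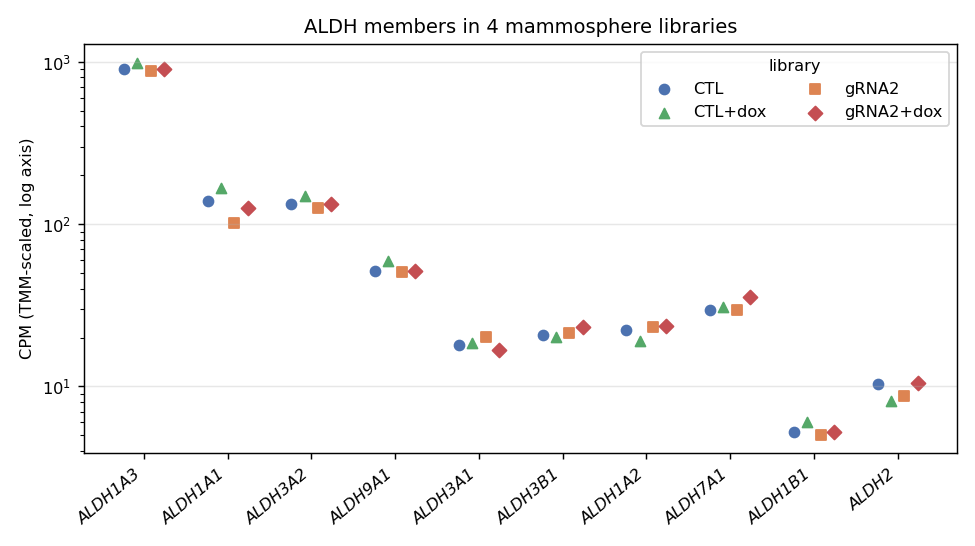
CPM of the 10 ALDH members in each of the 4 libraries, on a log axis; a point is 1 library, and members are ordered by their level per length of transcript. ALDH1A3 lies between 876 and 988 CPM in all 4 libraries, and ALDH1A1 between 102 CPM in gRNA2 and 168 CPM in CTL+dox.

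ALDH1A1 is a cytosolic retinaldehyde dehydrogenase and lies at chr9:72900671-72953053 on GRCh38.p14, with 13 exons in its canonical transcript. It had 2824 reads in untreated CTL, 3781 in CTL+dox, 2653 in untreated gRNA2 and 2740 in gRNA2+dox, which is 138, 168, 102 and 125 CPM. All neighbours in the order CTL+dox, CTL, gRNA2+dox, gRNA2 differed by more than counting error, so that both libraries of CTL cells lay above both of gRNA2 cells and each library with doxycycline lay above its own untreated library. ALDH1A1 was 1.23-fold higher in gRNA2+dox than in gRNA2, a log2 ratio of 0.30 (95% interval 0.22 to 0.38). In CTL cells, doxycycline came with nearly the same ratio, 0.28 (0.21 to 0.35). The log2 ratio in gRNA2 cells less that in CTL cells was 0.02, with an interval of -0.08 to 0.13. A difference of that width between the cell pools was thus not detectable at this depth, and the higher level with doxycycline was seen in the cells without the TCOF1 guide too.

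Set against the control pool, ALDH1A1 was lower in gRNA2 cells whether or not doxycycline was given. The log2 ratio was -0.44 (-0.52 to -0.36) for gRNA2 against CTL, where both are labelled wild type, and -0.42 (-0.49 to -0.35) for gRNA2+dox against CTL+dox. The direction of ALDH1A1 in the knockout library therefore turned with the reference, being higher than untreated gRNA2 and lower than either CTL library. Among 10910 genes with a mean of at least 100 counts, 2.84% ranged at least as widely over the 4 libraries as ALDH1A1, and the median range was 1.19-fold. Summed fibroblast markers were 20.0 and 19.0 CPM in CTL and CTL+dox and 24.6 and 25.5 CPM in gRNA2 and gRNA2+dox, and so also moved with the cell pool. Most of that sum was COL1A1, a fibrillar collagen chain, at 17.5 and 16.2 CPM in CTL cells and 20.8 in each gRNA2 library. PDGFRA, a growth factor receptor of mesenchymal cells, had 35 and 47 reads in CTL cells and 87 and 88 in gRNA2 cells. COL1A2, the partner chain of COL1A1, had more reads in CTL cells (11 and 9) than in gRNA2 cells (5 and 6), and the other 4 markers had at most 5 reads in any library. By the methods of the study the spheres were seeded from MDA-MB-468 cells, a cancer cell line. Which cells gave these reads, and what part they had in the ALDH1A1 values, was not tested. In bulk RNA, fewer cells expressing a gene and less of its RNA in each cell cannot be told apart. The canonical transcript of ALDH1A1 shared 0 of its 50-base stretches with annotated transcripts of other genes. Copies with mismatches or outside the annotation were not searched for.

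ALDH1A3, the other abundant retinaldehyde dehydrogenase, lies at chr15:100879831-100916626. It had 18405 reads in untreated CTL, 22258 in CTL+dox, 22812 in untreated gRNA2 and 19703 in gRNA2+dox, or 901, 988, 876 and 902 CPM. CTL+dox was highest and gRNA2 lowest, while gRNA2+dox and CTL were not apart. With this many reads small ratios leave counting error, and the log2 ratio was 0.13 (0.10 to 0.16) for CTL+dox against CTL but 0.04 (0.02 to 0.07) for gRNA2+dox against gRNA2. The ratio in gRNA2 cells was lower than that in CTL cells by a log2 difference of -0.09 (-0.13 to -0.05). Such a range is common: 72.5% of genes ranged at least as widely. An antisense transcript, ALDH1A3-AS1, overlaps 32.1% of the exon bases of ALDH1A3. Reads fell on the first strand in 49.0% to 49.1% of cases, so the libraries kept no strand and the pair cannot be told apart in these counts. No gene named ALDH1A3-AS1 was among those counted, so any of its reads there may have been counted as ALDH1A3.

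ALDH1A2 is the retinaldehyde dehydrogenase best known from the embryo and lies at chr15:57953429-58065711. It had 22.2 CPM in untreated CTL, 19.1 in CTL+dox, 23.3 in untreated gRNA2 and 23.6 in gRNA2+dox. Only CTL+dox stood below the rest by more than counting error. Its log2 ratio was 0.30 (0.11 to 0.49) for gRNA2+dox against CTL+dox and 0.02 (-0.15 to 0.19) for gRNA2+dox against gRNA2.

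ALDH1B1 and ALDH2 are mitochondrial acetaldehyde dehydrogenases. ALDH1B1, at chr9:38392702-38398661, had 107, 135, 131 and 114 reads in CTL, CTL+dox, gRNA2 and gRNA2+dox, and none of its neighbouring libraries were apart. The interval of gRNA2+dox against CTL+dox ran from -0.57 to 0.17 on the log2 scale, too wide at these counts to tell a modest difference from 0. ALDH2, at chr12:111766933-111817532, had 210 reads in untreated CTL, 183 in CTL+dox, 227 in untreated gRNA2 and 230 in gRNA2+dox, which is 10.3, 8.12, 8.71 and 10.5 CPM. It was the only member whose doxycycline ratio lay on opposite sides of 0 in the 2 pools with both intervals leaving out 0, at -0.34 (-0.63 to -0.05) in CTL cells and 0.27 (0.0022 to 0.54) in gRNA2 cells. The difference of these log2 ratios was 0.61 (0.21 to 1.02), the largest among the members. No neighbours in its order of libraries were apart, and the counts are low. Of its 50-base stretches 10.6% were shared with other transcripts, among them a readthrough gene on the same strand.

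ALDH3A1, ALDH3A2 and ALDH3B1 oxidise medium- and long-chain aldehydes, many of them from lipids. ALDH3A2, the fatty aldehyde dehydrogenase lost in Sjögren-Larsson syndrome, lies at chr17:19648136-19677596 and had 2708, 3377, 3290 and 2905 reads, or 133, 149.9, 126 and 133 CPM in CTL, CTL+dox, gRNA2 and gRNA2+dox. CTL+dox was above the other 3 libraries, each not apart from its neighbour in the order. Its log2 ratio was 0.18 (0.10 to 0.25) for CTL+dox against CTL and -0.17 (-0.24 to -0.10) for gRNA2+dox against CTL+dox.

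ALDH3A1, abundant in cornea and stomach, lies at chr17:19737984-19748298 and had 367, 418, 526 and 368 reads. It was the member with the lowest ratio of gRNA2+dox to gRNA2, at -0.26 (-0.46 to -0.07), with gRNA2 its highest library at 20.2 CPM and gRNA2+dox its lowest at 16.9. In CTL cells the ratio was 0.05 (-0.16 to 0.25), and the difference of the ratios was -0.31 (-0.59 to -0.02). ALDH3B1, at chr11:68008547-68029276, had 20.9, 20.0, 21.2 and 23.2 CPM, and no neighbouring libraries were apart. A few of its 50-base stretches, 35, were shared with its paralogue ALDH3B2.

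ALDH7A1 acts on an aldehyde intermediate of lysine breakdown, and ALDH9A1 on aminoaldehydes. ALDH7A1, the antiquitin of lysine breakdown, lies at chr5:126541841-126595219 and had 29.7 CPM in untreated CTL, 30.7 in CTL+dox, 29.7 in untreated gRNA2 and 35.7 in gRNA2+dox. The knockout library was above the other 3, which were not apart. Its log2 ratio was 0.27 (0.12 to 0.41) against gRNA2 and 0.22 (0.07 to 0.37) against CTL+dox. The doxycycline ratio in gRNA2 cells exceeded that in CTL cells by 0.22, with an interval whose lower end lay at 0.00 when rounded. ALDH7A1 was 1 of 2 members, with ALDH2, whose ratios were above 0 beyond counting error both against gRNA2 and against CTL+dox, which share the gRNA2+dox library. A pseudogene, ALDH7A1P1, shares 350 of its 50-base stretches, so some of its reads may be split or lost. ALDH9A1, which makes the precursor of carnitine, lies at chr1:165662216-165698562 and had 51.4, 59.4, 50.9 and 51.1 CPM. Only CTL+dox stood apart, at a log2 ratio of 0.21 (0.09 to 0.33) over CTL, and its doxycycline ratio in gRNA2 cells was lower by -0.21 (-0.37 to -0.04).

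**Figure D2:**
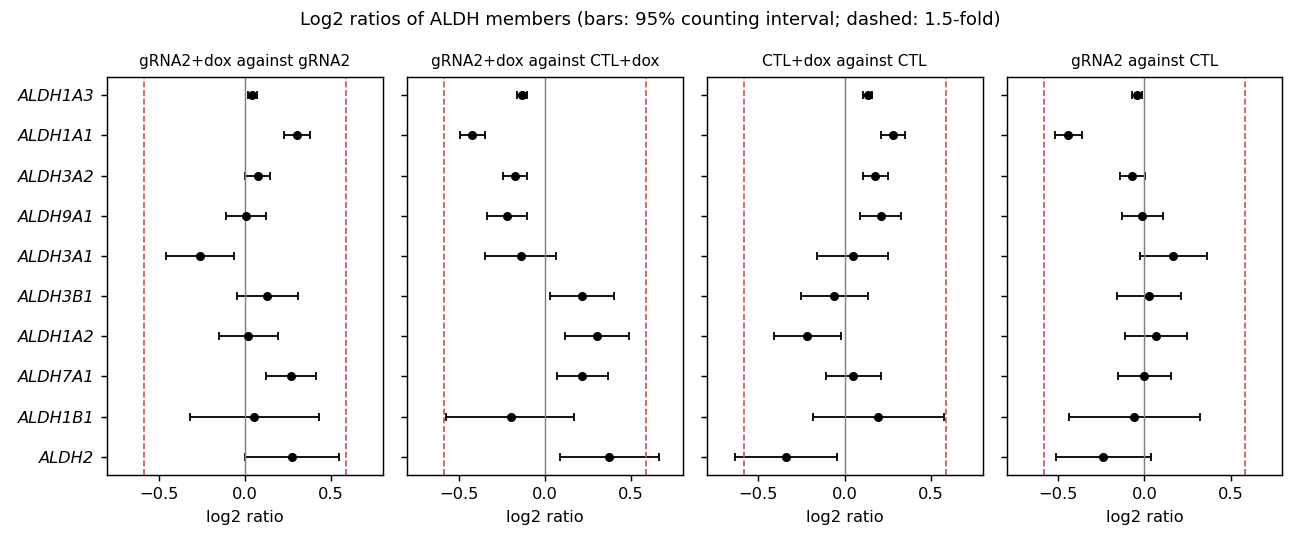
Log2 ratio of each member in the 4 comparisons, with the exact 95% counting interval as a bar, a grey line at 0 and dashed lines at 1.5-fold. No point lies beyond a dashed line, and ALDH1A1 lies left of 0 in gRNA2+dox against CTL+dox (-0.42) and in gRNA2 against CTL (-0.44) but right of 0 in both comparisons of doxycycline with no doxycycline.

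Across the family, the count of members past 1.5-fold with an interval that leaves out 0 was 0 of 10 in gRNA2+dox against gRNA2, where 4.09% of all genes passed, 0 against CTL+dox (6.77% of genes), 0 in CTL+dox against CTL (3.13%) and 0 in gRNA2 against CTL (4.06%). With shares this low among all genes, 0 of 10 is near the background. The cutoffs of the study, a log2 fold change past 1 and a bound past 0.5, were also met by 0 members, against 0.526%, 1.43%, 0.171% and 0.474% of genes in the same order. At a lower limit, a log2 ratio past 0.322 in size with the interval leaving out 0, no member passed in gRNA2+dox against gRNA2 (8.93% of genes). ALDH1A1 and ALDH2 passed in gRNA2+dox against CTL+dox (15.6%), ALDH2 in CTL+dox against CTL (7.53%) and ALDH1A1 in gRNA2 against CTL (8.96%).

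Smaller ratios beyond counting error were more frequent. In gRNA2+dox against gRNA2, 5 members were above 0 (ALDH1A1, ALDH1A3, ALDH2, ALDH3A2 and ALDH7A1), against 13.6% of all genes, and 1 was below (ALDH3A1, 17.3%). In gRNA2+dox against CTL+dox, 4 were below 0 (ALDH1A1, ALDH1A3, ALDH3A2 and ALDH9A1, 19.4%) and 4 above (ALDH1A2, ALDH2, ALDH3B1 and ALDH7A1, 20.8%). In CTL+dox against CTL, 4 were above (ALDH1A1, ALDH1A3, ALDH3A2 and ALDH9A1, 16.6%) and 2 below (ALDH1A2 and ALDH2, 14.3%). In gRNA2 against CTL, 2 were below (ALDH1A1 and ALDH1A3, 11.8%) and 0 above (19.7%). The 4 members lower in gRNA2+dox than in CTL+dox are those above 0 in CTL+dox against CTL, and these comparisons share the CTL+dox library. Intervals narrow with depth, and the median member had 607 reads a library against 415 for all genes. Among the 10910 genes with a mean of at least 100 reads, which include all 10 members, the shares were 16.9% above and 21.0% below in gRNA2+dox against gRNA2, 26.4% and 22.8% against CTL+dox, 21.2% and 17.8% in CTL+dox against CTL, and 25.4% and 13.2% in gRNA2 against CTL. The counts of 4 or 5 of 10 lay above these shares, the counts of 1 or 2 lay near them and the count of 0 above in gRNA2 against CTL lay below its share of 25.4%, a description of 10 genes with no test.

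The median log2 ratio of the 10 members was 0.06 in gRNA2+dox against gRNA2, beside -0.02 over all genes. It was -0.14 in gRNA2+dox against CTL+dox (all genes 0.00), 0.09 in CTL+dox against CTL (0.01) and -0.03 in gRNA2 against CTL (0.03). Above 0 were 9 of the 10 ratios in gRNA2+dox against gRNA2 (6968 of 15204 over all genes), 4 against CTL+dox (7627), 7 in CTL+dox against CTL (7947) and 4 in gRNA2 against CTL (8438), whether or not their intervals left out 0. The first of these counts includes ALDH9A1, whose ratio of 0.0030 became -0.0033 when scaled by total counts.

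**Figure D3:**
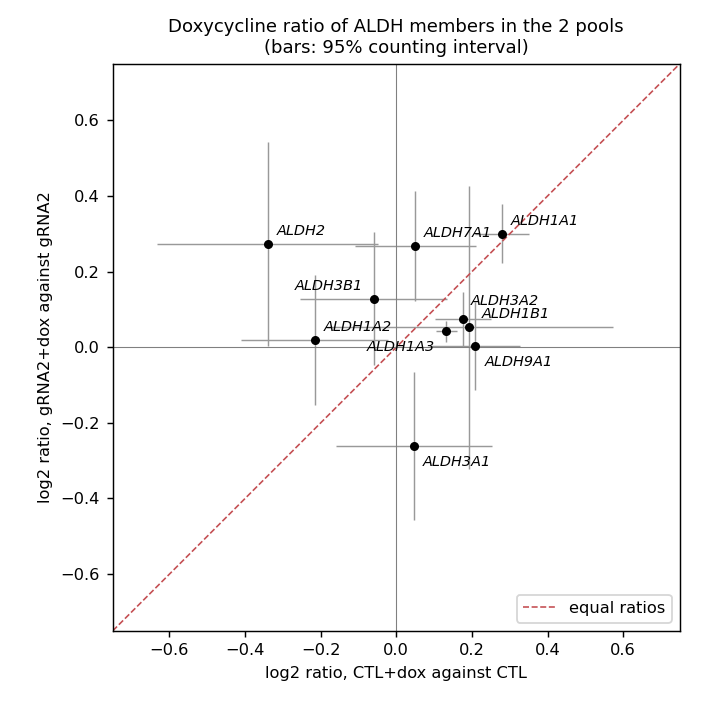
Log2 ratio with doxycycline in gRNA2 cells (vertical) against that in CTL cells (horizontal) for each member, with 95% counting intervals and a dashed line where both are equal. ALDH1A1 lies on the line (0.30 and 0.28), and ALDH2 lies farthest above it (0.27 and -0.34).

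The doxycycline ratio differed between gRNA2 and CTL cells beyond counting error for 5 of the 10 members, ALDH1A3, ALDH2, ALDH3A1, ALDH7A1 and ALDH9A1, and for 26.9% of all genes (32.4% of those with a mean of at least 100 reads). It was larger in gRNA2 cells for ALDH2 and ALDH7A1 and smaller for the other 3.

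Per kilobase of canonical transcript, ALDH1A3 was highest at 252 to 285 CPM per kb, followed among the members by ALDH1A1 (48.6 to 80.1), ALDH3A2 (34.1 to 40.5) and ALDH9A1 (21.3 to 24.8). ALDH3A1 and ALDH3B1 came next, and ALDH1A2 and ALDH7A1 overlapped in their ranges over the libraries. ALDH1B1 (1.66 to 1.98) and ALDH2 (0.850 to 1.10) were lowest. The order of the lower members depends on the length used: on all exon bases of a gene, the median of ALDH3A2 was 8.66 CPM per kb and fell behind ALDH9A1 at 17.0, while ALDH1A3 and ALDH1A1 stayed first and second among the members.

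**Figure D4:**
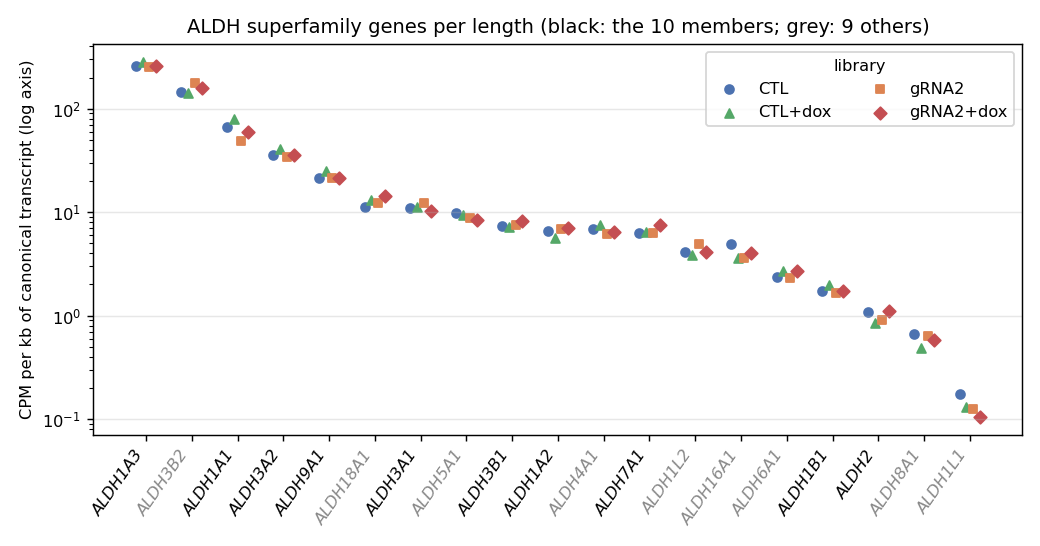
CPM per kilobase of canonical transcript, on a log axis, for the 10 members (black names) and 9 other ALDH superfamily genes (grey names), 1 point per library. ALDH1A3 is first at 252 to 285 and ALDH3B2 second at 142 to 176.

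The other 9 genes of the ALDH superfamily were all measured, and none passed 1.5-fold in any comparison. ALDH3B2, a paralogue of ALDH3B1, was the second most abundant ALDH gene per length, at 142 to 176 CPM per kb. It had 382 CPM in untreated CTL, 377 in CTL+dox, 467 in untreated gRNA2 and 425 in gRNA2+dox, and was thus higher in both gRNA2 libraries, by a log2 ratio of 0.29 (0.25 to 0.33) without doxycycline and 0.18 (0.13 to 0.22) with it. ALDH3B2 thus ordered the cell pools the other way from ALDH1A1. ALDH18A1, which makes a precursor of proline, ALDH5A1, which clears succinic semialdehyde, and ALDH4A1, of proline breakdown, followed at medians of 12.7, 9.02 and 6.67 CPM per kb. ALDH16A1 had 312 reads in CTL and 250 to 291 in the other libraries, with a log2 ratio of -0.46 (-0.71 to -0.22) for CTL+dox against CTL. ALDH1L2, ALDH6A1 and ALDH8A1 had medians of 4.14, 2.54 and 0.607 CPM per kb, and ALDH1L1 had 7 to 11 reads.

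Genes around retinoic acid were described as context for the ALDH1A members. Of 20 genes of retinoid metabolism and transport, 16 passed the filter. In gRNA2+dox against gRNA2, 1 was past 1.5-fold, DHRS9, a retinol dehydrogenase, which had 182, 270, 150 and 207 reads in CTL, CTL+dox, gRNA2 and gRNA2+dox. DHRS9 was thus higher with doxycycline in both pools, at log2 ratios of 0.72 (0.41 to 1.03) in gRNA2 and 0.43 (0.15 to 0.71) in CTL cells. It was lower in gRNA2 than in CTL (-0.63, -0.95 to -0.31). Its highest and lowest libraries, CTL+dox and gRNA2, were those of ALDH1A1, and also those of ALDH1A3, ALDH1B1, ALDH3A2 and ALDH9A1. In gRNA2+dox against CTL+dox, 1 was past it, BCO1, which cleaves beta-carotene, with 28 against 48 reads. In gRNA2 against CTL, DHRS4, which shares much sequence with its neighbouring copies, joined DHRS9 with 46 against 69 reads.

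Of 6 retinoic acid receptors 5 passed the filter, and RARB, itself switched on by retinoic acid, was past 1.5-fold in 3 comparisons on low counts. It had 39 reads in untreated CTL, 66 in CTL+dox, 97 in untreated gRNA2 and 49 in gRNA2+dox, a log2 ratio of -0.73 (-1.26 to -0.22) for gRNA2+dox against gRNA2, 0.61 (0.02 to 1.23) for CTL+dox against CTL and 0.96 (0.41 to 1.54) for gRNA2 against CTL. Of 10 listed target genes of retinoic acid 9 passed the filter, some of which are also in the lists above. RARRES1, a membrane protein induced by retinoids, had 4052, 5543, 4951 and 9151 reads. It was highest in the knockout library, at a log2 ratio of 1.14 (1.09 to 1.19) against gRNA2 and 0.77 (0.72 to 0.82) against CTL+dox. The first ratio passed the size of the study's cutoffs, but as an increase, and the study gave them for downregulated genes. RARB and RARRES1 are thus target genes that lay on opposite sides of 0 in gRNA2+dox against gRNA2. The median of the 9 target genes was -0.06 there, beside -0.02 for all genes.

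The genes whose pattern over the 4 libraries was nearest to that of ALDH1A1, by the Euclidean distance of centred log2 CPM among 12030 genes with a mean of at least 50 counts, were UQCC2 (0.0518), SURF1 (0.0696) and MAGEF1 (0.0803). For ALDH1A1, 9 genes lay within 0.1. For ALDH1A3 the nearest were ENO1 (0.00167), ARPC1B (0.0101) and PHF5A (0.0149), and 1124 genes lay within 0.1, so the flat pattern of ALDH1A3 was a common one. The distances rest on 4 libraries and are descriptions.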

How the data were processed

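RNA of 4 libraries of MDA-MB-468 mammospheres was analysed, 1 per condition. By the methods of the study, reads were trimmed with fastp and aligned with STAR, and the deposited values are STAR's counts of reads per gene, not normalized; the authors' processing notes name hg38, and the annotation is not given in the sources used here. STAR leaves out reads that map to several places, which lowers the counts of genes with close copies. The column of unstranded counts was used, 0 columns of per-sample values were left unused for want of a sample, and rows that name no gene stayed out of library sizes, which ran from 19960644 to 26322847.

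Counts were scaled by TMM with edgeR 4.0.16 in R 4.3.3, with a prior count of 0.5 for ratios, and a gene was kept if any library held 10 or more of its reads. With 1 library per condition, edgeR's quasi-likelihood test has no replicates to use and was not run. Exact 95% Clopper-Pearson intervals of the ratio of reads in a pair of libraries, and exact conditional intervals of the difference of doxycycline ratios (normal intervals for the share over all genes), were computed with Python 3.11.15 and scipy 1.17.1. The Clopper-Pearson and normal intervals were tested on counts simulated with Poisson error, which held no variation between cultures. The exact conditional intervals were not tested in this way. GFOLD was not run; in its place the bound was the 1% or 99% point of the posterior for the log2 ratio, with Poisson counting error. Transcript lengths come from GENCODE annotation lifted to GRCh37, and positions and promoters from RefSeq on GRCh38.p14.

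Named were all 10 members, the other ALDH superfamily genes, genes of the other lists past 1.5-fold or else the 2 most abundant, TCOF1, and the 3 genes nearest in pattern to ALDH1A1 and ALDH1A3. The members and lists were chosen with earlier results of these data known. The calls by an interval that leaves out 0, the range over libraries, the shares among genes with a mean of at least 100 reads, the exon lengths used as an alternative and the promoter motifs were added after the values were seen. Results were recomputed with scaling by DESeq2 1.42.0 or by totals alone, with other filters, priors, folds and bounds, and after thinning.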

Additional observations from a re-analysis of the deposited data

Results flagged for a closer look

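For 5 members the log2 ratio with doxycycline in gRNA2 cells differed from that in CTL cells by more than counting error, a comparison that was made between 4 libraries and has no replicate. The difference was 0.612 for ALDH2 and 0.217 for ALDH7A1, both higher in gRNA2 cells. It was -0.307 for ALDH3A1, -0.206 for ALDH9A1 and -0.09 for ALDH1A3, all lower in gRNA2 cells. Of all genes 26.9% differed in this way, and the guide and the variation between single cultures cannot be told apart here. No group had the 4 or more samples needed to look for a sample far from the others.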

How the results depend on the processing

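No paired analysis was possible because no condition has a replicate, so that no library could be left out. The count of members past the fold was 0 of 10 in each comparison at 1.5-fold and stayed 0 under DESeq2 size factors, total counts, both other filters, a prior count of 5 and thinning. At a log2 ratio of 0.322 it was 2 in gRNA2+dox against CTL+dox, 1 in CTL+dox against CTL, 1 in gRNA2 against CTL and 0 in gRNA2+dox against gRNA2. No ratio whose interval left out 0 turned its direction under these settings. Ratios near 0 with intervals that include 0 did: ALDH9A1 in gRNA2+dox against gRNA2 from 0.0030 to -0.0033 with total counts, and in gRNA2 against CTL ALDH3B1 from 0.03 to -0.02 with total counts and ALDH7A1 from 8.1e-05 to -0.02 with DESeq2 size factors, -0.05 with total counts and -0.06 with thinning. Intervals came to include 0 for ALDH2 (0.266) and ALDH3A2 (0.0682) in gRNA2+dox against gRNA2 with total counts, for ALDH3A1 (-0.197) there and for ALDH2 in CTL+dox against CTL (-0.283) with thinning, and for the difference of doxycycline ratios of ALDH3A1 with DESeq2 size factors (-0.283) and total counts (-0.284); the cause was not tested. In gRNA2 against CTL, intervals came to leave out 0 for ALDH3A2 (-0.0911 with DESeq2 size factors, -0.118 with total counts and -0.0997 with thinning) and for ALDH2 (-0.286 with total counts). The ratios of ALDH1A1 kept their side of 0 with intervals that left out 0 under each of these settings. Lengths by exon union, added after the data were seen, changed the median level per length of 8 members by more than its spread over the libraries. Depth limits ALDH1B1 and ALDH2 most, with 107 to 135 and 183 to 230 reads.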

Other observations

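Other enzymes that handle aldehydes and alcohols were also measured. Of 7 alcohol dehydrogenases only ADH5, the glutathione-dependent formaldehyde dehydrogenase, passed the filter, with 846 reads in untreated CTL, 1241 in CTL+dox, 1047 in untreated gRNA2 and 930 in gRNA2+dox. The other 6 had at most 3 reads in any library. All 10 aldo-keto and carbonyl reductases passed the filter. AKR1C1, a steroid-reducing enzyme with near-identical paralogues that can share its reads, was past 1.5-fold in gRNA2+dox against CTL+dox, with 1589 against 2552 reads and a log2 ratio of -0.64 (-0.73 to -0.55). It was also lower in gRNA2 than in CTL, at -0.45 (-0.54 to -0.36), and so, like ALDH1A1, it was lower in both gRNA2 libraries than in either CTL library.

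White blood cell markers summed to 61.7 to 67.9 CPM, nearly all from CSF1R and CD14, and PTPRC, which marks white blood cells in general, had 1 or 2 reads in each library.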
